A study of Mus musculus with 12 samples.

Results

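A set of 10 genes of insulin signaling was followed through isolated mouse white adipocytes treated with the pan β-adrenergic agonist isoproterenol (ISO), with or without lipase inhibitors. The 10 genes were Insr, Irs1, Irs2, Pik3r1, Akt1, Akt2, Foxo1, Foxo3, Grb10 and Grb14, chosen by symbol from a table of 20295 genes. All 10 passed the filter on low counts, as did 13543 genes in all. The cells were mature adipocytes floated from collagenase-digested epididymal fat (eWAs) of lean male C57/BL6J mice, all of them without a genetic modification named in the labels, and no age was given. They were embedded at 50000 cells per well in a hydrogel and kept for 2 days in high-glucose medium with serum, and the labels name no insulin added to it. The 4 groups of 3 libraries were vehicle (DMSO), ISO for 3 h, lipase inhibitors alone (Lip), and lipase inhibitors followed by ISO for 3 h (Lip+ISO). The inhibitors named in the study's methods are Atglistatin, which blocks adipose triglyceride lipase, and CAY10499, listed against hormone-sensitive lipase and monoacylglycerol lipase. The study's text reports no lipolysis assay of these white adipocytes, so blocked lipases below means treatment with these inhibitors. The legend of the study's figure on these cells names an ABHD5 ligand as the stimulus, whereas the sample titles and the results text name ISO, and ISO is used here.

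Insulin binding activates the tyrosine kinase of the insulin receptor, which phosphorylates the docking proteins IRS1 and IRS2. These recruit phosphoinositide 3-kinase (PI3K) through its regulatory subunit, and the lipid product activates the kinases AKT1 and AKT2. AKT phosphorylates FOXO1 and FOXO3, which then leave the nucleus, while the adaptors GRB10 and GRB14 bind the receptor and restrain it. In white adipocytes insulin drives glucose uptake and lipid storage and restrains lipolysis, whereas β-adrenergic agonists raise cAMP and activate lipolysis. The comparisons ask which of these transcripts moved with ISO and whether blocking the lipases altered that.

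Libraries held 22632220 to 43707557 counts, and ISO replicate 2 was the deepest. A member had at least 139 counts in every library, so 0 counts did not occur. Levels are given as CPM, a gene's count relative to the total of its library, scaled by TMM (trimmed mean of M values). A gene was called when the Benjamini-Hochberg adjusted p of edgeR's quasi-likelihood test over all 13543 genes was at or under 0.05. Errors of log2 fold changes are standard errors, and errors of levels are SD with n = 3. Adipocyte markers summed to 32799 to 49782 CPM in every library, and their ranges overlapped between all groups. Of these 10 markers 2 fell and 0 rose in ISO against vehicle and in Lip+ISO against Lip. In Lip+ISO against ISO 1 rose and 2 fell. Over all genes 26.2%, 27.3% and 8.94% were called in these 3 comparisons. Markers of other cells were present at lower levels and several were higher with ISO. The summed level of 11 macrophage markers was 55.4 to 69.6 CPM in vehicle, 115 to 172 in ISO, 60.0 to 64.6 in Lip and 75.5 to 128 in Lip+ISO, and 7 of the 11 rose in ISO against vehicle. For 10 fibroblast markers these ranges were 513 to 894, 1015 to 1346, 658 to 735 and 634 to 861 CPM, and 5 of the 10 rose in ISO against vehicle. For 10 endothelial markers they were 133 to 252, 302 to 545, 67.4 to 218 and 102 to 299 CPM, with 1 of 10 higher, and for 8 mesothelial markers 29.4 to 72.2, 72.1 to 86.1, 15.1 to 126 and 47.4 to 66.1 CPM, with 1 of 8 higher. These counts of markers stand against 26.2% of all genes called in ISO against vehicle, 1670 higher and 1878 lower. In Lip+ISO against ISO 4 of the 10 fibroblast markers and 1 of the 10 endothelial markers fell and 0 rose. There 0 macrophage and 0 mesothelial markers were called, against 8.94% of all genes. Msln was at 0 in Lip replicate 1, and no other marker was at 0 in any library. The part of these cells in the results below was not tested, and in bulk RNA fewer cells of a type and less RNA per cell cannot be told apart.

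Promoter windows were read for the docking proteins, which were higher under ISO with the lipases blocked, and for Pik3r1, which fell most among the members. RefSeq (GRCm38.p6) gave promoters for 9 of the 10 members, 15 windows in all, and none was used for Insr. Each run below holds the 250 bases before a start site, 5′ to 3′ along the gene's strand. Capitals mark matches on either strand to the insulin response element core CAAAACA or to TGACG, the core of a cAMP response element (CRE). The Irs1 window is chr1:82291440-82291689 and the Irs2 window is chr8:11008930-11009179, and the 2 Pik3r1 windows are chr13:101768218-101768467 and chr13:101692631-101692880, all on the minus strand.
Irs1: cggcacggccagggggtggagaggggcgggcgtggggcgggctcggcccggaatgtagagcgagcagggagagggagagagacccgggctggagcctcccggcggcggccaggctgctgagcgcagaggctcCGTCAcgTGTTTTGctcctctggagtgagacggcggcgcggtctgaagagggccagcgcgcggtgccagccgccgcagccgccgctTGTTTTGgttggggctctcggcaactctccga
Irs2: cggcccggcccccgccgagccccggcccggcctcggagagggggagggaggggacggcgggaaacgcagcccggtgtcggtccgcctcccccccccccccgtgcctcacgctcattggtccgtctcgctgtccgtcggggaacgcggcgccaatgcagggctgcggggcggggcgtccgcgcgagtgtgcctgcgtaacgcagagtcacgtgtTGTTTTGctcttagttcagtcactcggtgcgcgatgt
Pik3r1 upstream start: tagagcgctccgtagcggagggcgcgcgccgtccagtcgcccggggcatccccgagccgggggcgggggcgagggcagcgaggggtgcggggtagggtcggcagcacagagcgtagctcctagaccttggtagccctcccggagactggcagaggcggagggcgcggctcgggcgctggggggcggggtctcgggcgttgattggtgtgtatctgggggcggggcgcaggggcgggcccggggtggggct
Pik3r1 downstream start: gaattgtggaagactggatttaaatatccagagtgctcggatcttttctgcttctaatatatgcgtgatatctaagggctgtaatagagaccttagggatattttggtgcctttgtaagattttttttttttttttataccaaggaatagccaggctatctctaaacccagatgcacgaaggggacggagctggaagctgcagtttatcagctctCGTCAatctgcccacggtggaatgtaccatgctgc
The element CAAAACA occurred once in the Irs2 window, starting 37 bases before the start site, and at 111 and 32 bases before it in the Irs1 window. Irs1 and Irs2 were the 2 members of 9 that held it, in 2 of the 15 windows, against 5.60% of all 32536 distinct mouse windows. The core TGACG was found in Irs1, Akt2, Foxo3, Grb10 and the downstream Pik3r1 window, 5 of 9 members and 6 of the 15 windows, against 17.9% of all windows. The full CRE TGACGTCA, which contains the core, was in none of the 15 windows and in 1.56% of all windows. A FOXO site, GTAAACA, which was counted separately from CAAAACA, was in Akt1 alone. It began 161 bases before the start, in 1 of the 15 windows, against 3.17% of all windows. A match describes these letters and shows no binding.

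Of the 10 members, 5 were called in ISO against vehicle. Irs2 rose, and Insr, Pik3r1, Foxo1 and Foxo3 fell, while Irs1, Akt1, Akt2, Grb10 and Grb14 did not pass the test. Over all genes 26.2% were called in this comparison and 7.48% were also at least 1 log2 unit apart, which held for Irs2 and Pik3r1. The 3 ISO libraries did not overlap the 3 vehicle libraries for the same 5 members, against 43.3% of all genes. With the lipases blocked, Lip+ISO against Lip, 6 of 10 were called against 27.3% of all genes. Irs2 and Irs1 rose, and Insr, Pik3r1, Foxo1 and Grb14 fell. Here 7 members had libraries that did not overlap, against 39.1% of all genes, and Irs2 and Pik3r1 were again those past 1 log2 unit, against 7.35%. The median log2 fold change of the members was -0.16 in the first comparison and -0.18 in the second, and that of all genes 0.00 in both. The inhibitors alone moved none of the 10 past the threshold in edgeR or in DESeq2. At an unadjusted p under 0.05 stood Insr and Irs2, against 4.3% of all genes, and over all genes 0.0517% were called, or 0.0222% with at least 1 log2 unit.

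**Figure D1:**
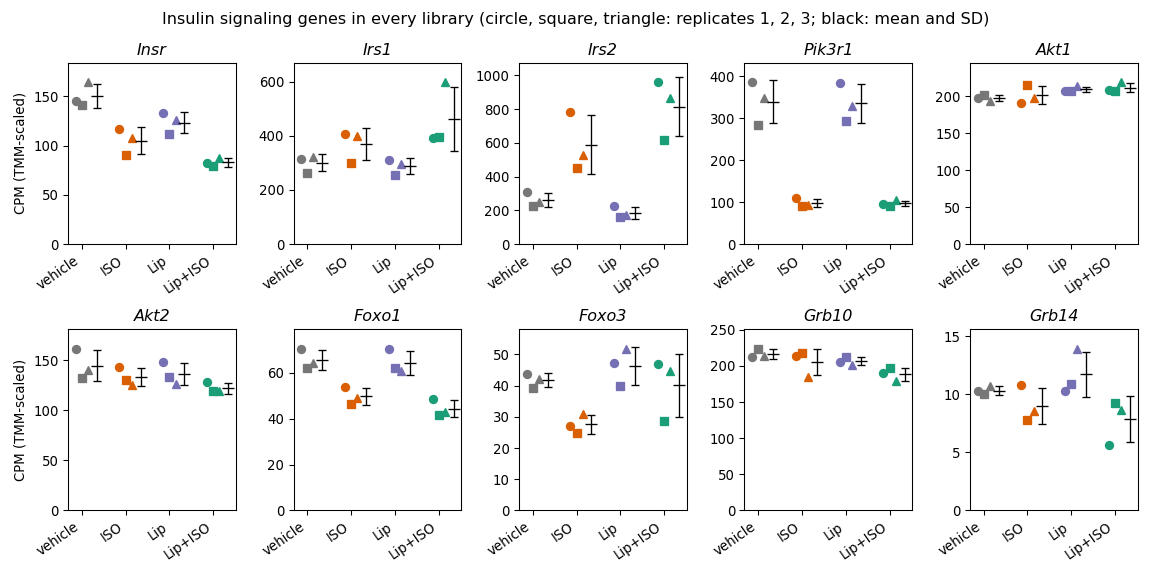
TMM-scaled CPM of each of the 10 genes (y axes, from 0) in the 4 groups (x axes). Symbols are libraries and the black dash and bar are the mean and SD. Pik3r1 sits between 284 and 385 CPM in every library without ISO and between 90.1 and 110 in every library with it, and the mean of Irs2 is highest in Lip+ISO.

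The receptor gene Insr (NM_010568, mm9 chr8:3150922-3279617, minus strand) had 146, 141 and 164 CPM in vehicle and 117, 90.1 and 108 CPM in ISO. With inhibitors it had 133, 112 and 126 CPM in Lip and 82.3, 79.1 and 87.5 CPM in Lip+ISO. Every ISO library lay below every vehicle library, and every Lip+ISO library below every Lip and every ISO library. Insr fell with ISO by 0.52 ± 0.10 on the log2 scale (adjusted p = 0.00286), a 1.43-fold lower level. It fell by 0.57 ± 0.10 with the lipases blocked (adjusted p = 0.00112), 1.49-fold lower. The difference between these responses was -0.05 ± 0.15 (95% interval -0.37 to 0.26, adjusted p = 0.918). Lip+ISO against ISO gave -0.34 ± 0.10, with an adjusted p of 0.0639 that missed the threshold. Without ISO replicate 2 that difference was -0.44 with an adjusted p of 0.0249, and DESeq2 called it at 0.0491. Without replicate 3 of every group the fall with ISO alone had an adjusted p of 0.0530.

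The docking protein gene Irs2 (NM_001081212, mm9 chr8:10986964-11008430, minus strand) had the widest range of the 10. It had 309, 225 and 252 CPM in vehicle and 785, 453 and 527 CPM in ISO. In Lip it had 224, 159 and 174 CPM and in Lip+ISO 959, 617 and 868 CPM. All libraries with ISO lay above all libraries without it, and all Lip libraries lay below all vehicle libraries. Irs2 rose 2.25-fold with ISO (log2 1.17 ± 0.22, adjusted p = 0.00184). It rose 4.39-fold with ISO when the lipases were blocked (log2 2.14 ± 0.22, adjusted p = 1.36e-05). The lower start and the higher end both entered that larger fold: Lip against vehicle gave -0.50 ± 0.22 (unadjusted p = 0.0386, adjusted p = 1.00) and Lip+ISO against ISO 0.47 ± 0.22 (adjusted p = 0.207). The difference between the responses itself was 0.97 ± 0.31 on the log2 scale (95% interval 0.31 to 1.63). Its unadjusted p was 0.00759 and its adjusted p 0.159 in edgeR over all genes, without a replicate block. In that fit no member was called for this difference, against 1.62% of all genes, or 0.746% with at least 1 log2 unit. DESeq2 gave an adjusted p of 0.0295 for Irs2. A fit with the replicate numbers as a block, given in the last section with its limits, also called Irs2 for this difference. Without ISO replicate 1, the ISO library with the highest Irs2 level, the difference was 1.23 (adjusted p = 0.0478) and Lip+ISO against ISO was 0.73 (adjusted p = 0.0498).

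Irs1 (NM_010570, mm9 chr1:82229680-82288014, minus strand), the other docking protein of the list, moved less. It had 316, 264 and 321 CPM in vehicle and 408, 301 and 401 CPM in ISO, which overlapped. In Lip it had 311, 256 and 297 CPM and in Lip+ISO 392, 397 and 599 CPM, which did not. ISO against vehicle gave 0.30 ± 0.17 (95% interval -0.06 to 0.66, adjusted p = 0.204). Irs1 rose with ISO in the presence of the inhibitors, by 0.69 ± 0.17 or 1.61-fold (adjusted p = 0.00829), and without replicate 3 of every group this was 0.48 with an adjusted p of 0.0846. The difference between the responses was 0.38 ± 0.24 (adjusted p = 0.523), so that they are not shown to differ.

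The 2 docking protein genes were also set side by side per kilobase of counted length. The log2 ratio of Irs2 over Irs1 was 1.05 ± 0.16 in vehicle, 1.89 ± 0.28 in ISO, 0.61 ± 0.15 in Lip and 2.07 ± 0.41 in Lip+ISO (SD, n = 3). The ratio was above vehicle in every ISO library and above Lip in every Lip+ISO library, and it was lower in every Lip library than in any vehicle library. Each of these 3 differences had a two-sided exact permutation p of 0.1, the smallest that 3 against 3 libraries allow. Lip+ISO and ISO overlapped (exact p = 0.6).

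**Figure D2:**
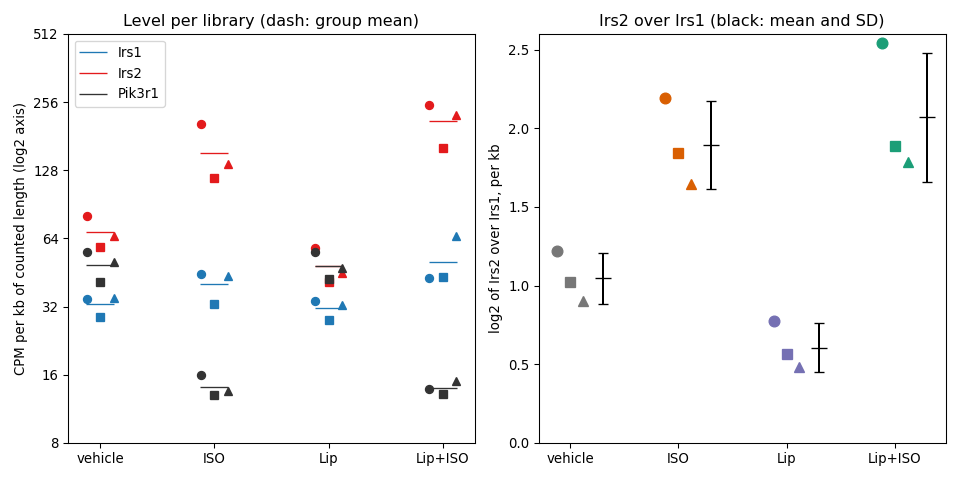
Left, CPM per kilobase of counted length (log2 axis) of Irs1, Irs2 and Pik3r1 in each library of the 4 groups, with dashes at the group means. Right, the log2 ratio of Irs2 over Irs1 per library with the mean and SD in black, from 0.61 in Lip to 2.07 in Lip+ISO.

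Pik3r1 (NM_001077495, mm9 chr13:102450716-102538172, minus strand) encodes the main regulatory subunit of PI3K, which binds the phosphorylated docking proteins. Its levels were 385, 284 and 348 CPM in vehicle and 110, 90.1 and 93.7 CPM in ISO. They were 384, 292 and 329 CPM in Lip and 95.7, 90.6 and 104 CPM in Lip+ISO. The libraries thus formed a high set without ISO and a low set with it, with a wide gap between them. Pik3r1 fell by 1.79 ± 0.13 with ISO (3.47-fold lower, adjusted p = 1.21e-06). It fell by 1.79 ± 0.13 with ISO and inhibitors (3.46-fold lower, adjusted p = 6.25e-07). The difference between the responses was 0.00 ± 0.18 (95% interval -0.39 to 0.39, adjusted p = 0.998). Lip against vehicle gave -0.02 ± 0.13 (95% interval -0.29 to 0.26) and Lip+ISO against ISO -0.02 ± 0.13 (95% interval -0.30 to 0.26). In ISO against vehicle the ranges of the summed macrophage, fibroblast and endothelial markers did not overlap, all higher with ISO. Those of the mesothelial markers overlapped. In Lip+ISO against Lip the ranges of the summed fibroblast, endothelial and mesothelial markers overlapped, while those of the macrophage markers did not. Of the 11 macrophage markers 3 rose there, where 27.3% of all genes were called. The part of these cells in the fall was not tested. The table holds 1 row for the gene, so products of its different start sites were not told apart.

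The kinases Akt1 (NM_009652, mm9 chr12:113892032-113912487, minus strand) and Akt2 (NM_001110208, mm9 chr7:28376579-28424472, plus strand) varied little. Akt1 had 194 to 201 CPM in vehicle, 192 to 216 in ISO, 207 to 214 in Lip and 208 to 219 in Lip+ISO. ISO against vehicle gave 0.03 ± 0.07 for Akt1 (95% interval -0.12 to 0.17, adjusted p = 0.780) and Lip+ISO against Lip 0.02 ± 0.07 (95% interval -0.13 to 0.16, adjusted p = 0.886). Akt1 was thus measured within narrow limits, and its sign turned with the scaling. Akt2, the isoform most tied to glucose uptake in fat cells, had 132 to 162 CPM in vehicle, 126 to 143 in ISO, 127 to 148 in Lip and 119 to 128 in Lip+ISO. Its differences were -0.12 ± 0.09 (95% interval -0.32 to 0.08, adjusted p = 0.350) and -0.15 ± 0.09 (95% interval -0.35 to 0.04, adjusted p = 0.255). Scaled by library totals alone, which moved the median of all genes to -0.12 in Lip+ISO against Lip, Akt2 was at -0.26 there with an adjusted p of 0.0232.

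Foxo1 (NM_019739, mm9 chr3:52072259-52154031, plus strand), a transcription factor that AKT keeps out of the nucleus, had 70.4, 62.1 and 64.2 CPM in vehicle and 53.7, 46.2 and 48.9 CPM in ISO. It had 70.1, 61.9 and 60.6 CPM in Lip and 48.4, 41.6 and 43.0 CPM in Lip+ISO. No library with ISO reached any library without it. Foxo1 fell by 0.40 ± 0.09 with ISO (1.32-fold lower, adjusted p = 0.00636) and fell by 0.53 ± 0.09 with ISO and inhibitors (1.45-fold lower, adjusted p = 0.000747). The difference between the responses was -0.13 ± 0.13 (95% interval -0.41 to 0.15, adjusted p = 0.719). Left without replicate 2 or replicate 3 of every group, the first fall had adjusted p values of 0.0706 and 0.0681.

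Foxo3 (NM_019740, mm9 chr10:41905592-41996548, minus strand), a factor of the same family, showed another pattern. It had 43.8, 39.3 and 42.2 CPM in vehicle and 27.0, 25.0 and 30.9 CPM in ISO. In Lip it had 47.2, 40.0 and 51.9 CPM and in Lip+ISO 46.9, 28.6 and 44.7 CPM. The ISO libraries lay below all vehicle libraries, whereas 2 of the 3 Lip+ISO libraries lay among the Lip libraries. Foxo3 fell by 0.60 ± 0.16 with ISO (1.51-fold lower, adjusted p = 0.0180), and Lip+ISO against Lip gave -0.21 ± 0.16 (95% interval -0.56 to 0.14, adjusted p = 0.388). The difference between the responses was 0.39 ± 0.23 (95% interval -0.11 to 0.89, adjusted p = 0.508), so the responses are not shown to differ. Lip+ISO against ISO gave 0.54 ± 0.16 (95% interval 0.18 to 0.89, adjusted p = 0.0639), called by DESeq2 at 0.0202 and by edgeR without Lip+ISO replicate 2 (0.73, adjusted p = 0.00430). The fall with ISO missed the threshold without vehicle replicate 1 (adjusted p = 0.0608), vehicle replicate 3 (0.0534) or ISO replicate 2 (0.0753), and without replicate 1 (0.111) or replicate 3 (0.0729) of every group. The log2 ratio of Foxo1 over Foxo3 per kilobase was -0.10 ± 0.17 in ISO and -0.77 ± 0.32 in Lip+ISO (SD, n = 3), without overlap (exact permutation p = 0.1, the smallest possible). This ratio was -0.29 ± 0.04 in vehicle and -0.47 ± 0.22 in Lip.

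The receptor inhibitors Grb10 (NM_010345, mm9 chr11:11830502-11937423, minus strand) and Grb14 (NM_016719, mm9 chr2:64750540-64860823, minus strand) are adaptors that bind the activated receptor. Grb10 had 212 to 224 CPM in vehicle, 185 to 218 in ISO, 201 to 212 in Lip and 179 to 197 in Lip+ISO. Its response to ISO was -0.07 ± 0.08 (95% interval -0.24 to 0.09, adjusted p = 0.503), and -0.13 ± 0.08 in the presence of inhibitors (95% interval -0.30 to 0.04, adjusted p = 0.253). Grb14 was the lowest member per kilobase in every group, with 139 to 503 counts a library. It had 10.3, 9.99 and 10.7 CPM in vehicle, 10.8, 7.76 and 8.56 in ISO, 10.3, 10.9 and 13.9 in Lip and 5.62, 9.27 and 8.66 in Lip+ISO. ISO against vehicle gave -0.20 ± 0.20 (95% interval -0.62 to 0.23, adjusted p = 0.485). Grb14 fell by 0.58 ± 0.20 in Lip+ISO against Lip (1.49-fold lower, adjusted p = 0.0439), and the libraries did not overlap. That call was lost without any 1 of 9 libraries, namely the 3 vehicle and 3 Lip libraries, ISO replicate 3 and Lip+ISO replicates 1 and 3 (adjusted p 0.0535 to 0.177). It was also lost with DESeq2-type size factors in edgeR (0.0541) and in a fit of these 2 groups alone (0.105).

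**Figure D3:**
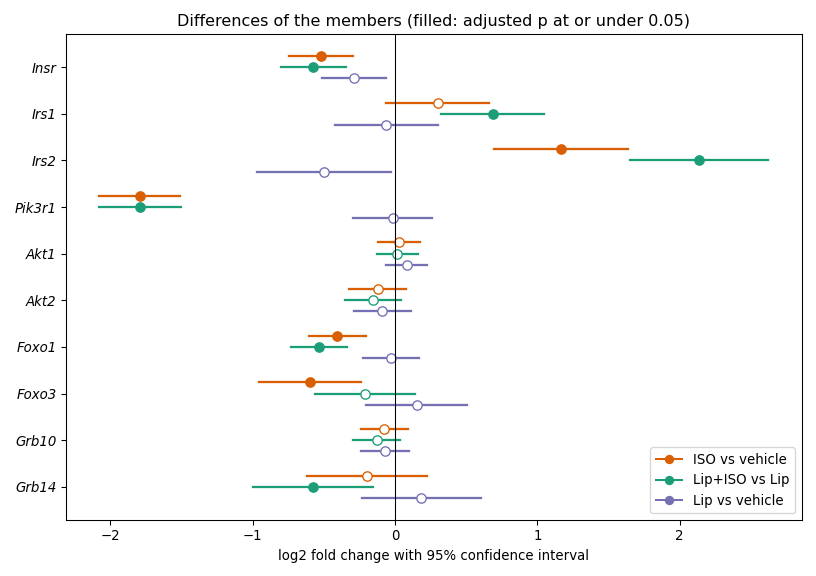
Log2 fold change (x axis) of each of the 10 genes (y axis) with its 95% interval, in ISO against vehicle (orange), Lip+ISO against Lip (green) and Lip against vehicle (purple). Filled symbols passed the adjusted p of 0.05. Pik3r1 is at -1.79 in both ISO comparisons and Irs2 at 1.17 and 2.14, whereas no purple symbol is filled.

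Ranked by CPM per kilobase of counted length, Akt1 led in vehicle (73.5 ± 1.4) with Irs2 next (68.0 ± 11.1), and these 2 overlapped. With ISO, Irs2 led at 153 ± 45 and with Lip+ISO at 212 ± 46, in both cases above every Akt1 library (74.9 ± 4.6 and 78.8 ± 2.4). Pik3r1 was the third in vehicle (49.0 ± 7.4), overlapping Akt2 (45.8 ± 4.8), and the second in Lip (48.5 ± 6.7), there overlapping Irs2 (48.2 ± 8.9). It was the sixth in ISO (14.2 ± 1.5) and the sixth in Lip+ISO (14.0 ± 1.0), there overlapping Foxo3 (13.9 ± 3.5). Akt2 and Grb10 were neighbours that overlapped in all 4 groups. The order at the lower end was Foxo1 above Grb14 in every group, without overlap.

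Lip+ISO against ISO called none of the 10 members in edgeR without a replicate block, against 8.94% of all genes, or 1.99% with at least 1 log2 unit. The fit with the replicate numbers as a block, given in the last section with its limits, called Irs2, Foxo3 and Insr there. At an unadjusted p under 0.05 stood 3 of the 10, Insr (-0.34), Irs2 (0.47) and Foxo3 (0.54), against 23.8% of all genes, and DESeq2 called Insr and Foxo3. Their libraries did not overlap for 1 member, Insr, against 25.4% of all genes. In Lip against vehicle 4 members did not overlap (Insr, Irs2, Akt1 and Grb10), against 10.4% of all genes. These comparisons share the ISO and vehicle libraries with those above.

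The genes whose log2 CPM followed Irs2 most closely over the 12 libraries, among 8936 genes of sufficient level, were Rheb (Pearson r = 0.983), Mrap (0.983), Clic4 (0.981), Eif4g2 (0.980) and Dusp4 (0.979). Rheb, the small GTPase that activates mTOR complex 1, averaged 185 CPM in vehicle, 216 in ISO, 173 in Lip and 244 in Lip+ISO, the order in which Irs2 stood. Mrap, an accessory protein of the adrenocorticotropin receptor, averaged 391, 608, 344 and 676 CPM. These likenesses describe 12 libraries that share the 4 treatments.

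Of 65 further genes of the pathway, 62 were tested. In ISO against vehicle 9 were higher, 12 lower and 41 not called, with a median log2 fold change of -0.10, against 26.2% of all genes called. In Lip+ISO against Lip 10 were higher, 14 lower and 38 not called, with a median of -0.08, against 27.3% of all genes. Library totals alone gave 8 and 21 there, against 1069 higher and 2968 lower over all genes. None was called in Lip against vehicle in edgeR or DESeq2. Lip+ISO against ISO gave 4 higher and 6 lower where 8.94% of all genes were called. DESeq2 gave 7 and 6, against 876 and 831 over all genes. For the difference between the responses 3 were higher and 1 lower where 1.62% of all genes were called. Library totals gave 2 and 2, against 113 and 120 over all genes. The counts by role below stand against these same shares.

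Irs3, a docking protein found in rodent adipocytes, moved in the opposite direction to Irs2. It had 52.9, 44.6 and 55.7 CPM in vehicle, 10.6, 9.14 and 8.52 in ISO, 41.4, 39.7 and 45.1 in Lip and 6.79, 8.04 and 8.98 in Lip+ISO. Its libraries with and without ISO stood far apart. Irs3 fell by 2.44 ± 0.13 with ISO (5.43-fold lower, adjusted p = 8.61e-08) and fell by 2.41 ± 0.13 with ISO and inhibitors (5.30-fold lower, adjusted p = 3.98e-08). Of the 10 docking proteins and adaptors tested, 2 rose and 3 fell with ISO, and 3 rose and 4 fell with ISO and inhibitors. Gab1, a docking protein shared with growth factor receptors, fell by 0.94 with ISO (adjusted p = 0.000489), from 27.8 to 14.6 CPM. It fell by 1.59 ± 0.15 with ISO and inhibitors (adjusted p = 4.75e-06), from 33.2 to 11.0 CPM. Sh2b2, an adaptor that links the receptor to CBL, rose by 0.99 with ISO (adjusted p = 9.25e-05), from 31.1 to 62.0 CPM. It rose by 1.34 ± 0.12 with ISO and inhibitors (adjusted p = 4.85e-06), from 22.0 to 55.8 CPM.

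Of 7 inhibitors of the pathway tested, 5 rose and none fell in ISO against vehicle, and 3 rose, none fell and 4 were not called in Lip+ISO against Lip. Socs3, which binds the receptor and targets IRS proteins for degradation, had 10.4, 10.7 and 12.7 CPM in vehicle and 57.1, 48.1 and 48.5 CPM in ISO. It had 11.6, 12.3 and 12.8 CPM in Lip and 180, 145 and 153 CPM in Lip+ISO. Every Lip+ISO library held more Socs3 than any ISO library, and every ISO library more than any without ISO. Socs3 rose 4.55-fold with ISO (log2 2.19 ± 0.11, adjusted p = 7.79e-08) and 13.0-fold with ISO and inhibitors (log2 3.70 ± 0.12, adjusted p = 9.61e-10). The difference between the responses was 1.52 ± 0.15 (adjusted p = 0.000418). Trib3, a pseudokinase that binds AKT, averaged 94.2 ± 0.9 CPM in vehicle, 167 ± 18 in ISO, 96.4 ± 11.2 in Lip and 388 ± 51 in Lip+ISO. It rose by 0.83 with ISO (adjusted p = 0.000213) and by 2.01 ± 0.12 with ISO and inhibitors (4.03-fold, adjusted p = 7.91e-08). In Lip+ISO it stood 1.21 ± 0.11 above ISO alone (adjusted p = 4.10e-05), and the difference between the responses was 1.18 ± 0.16 (adjusted p = 0.00273). That difference had an adjusted p of 0.0805 without replicate 2 of every group. Its relative Trib1 rose 2.15-fold with ISO (adjusted p = 0.000100), from 105 to 226 CPM. With ISO and inhibitors Trib1 rose by 0.88 on the log2 scale (adjusted p = 0.000348), from 109 to 200 CPM. Enpp1, an ectoenzyme that inhibits the receptor, rose by 1.53 ± 0.34 with ISO (adjusted p = 0.00599), from 5.85 to 16.8 CPM, but not past the threshold without replicate 3 of every group (adjusted p = 0.102). Lip+ISO against ISO gave -1.21 ± 0.34 for Enpp1 (adjusted p = 0.0436), called in 10 of 21 alternatives and lost without vehicle replicate 1, ISO replicate 2 or 3, any Lip library, or Lip+ISO replicate 1 or 3.

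Phlpp2, a phosphatase that removes an activating phosphate from AKT, fell by 1.53 ± 0.12 with ISO (adjusted p = 1.79e-06), from 36.3 to 12.6 CPM. It fell by 1.35 ± 0.12 with ISO and inhibitors (adjusted p = 2.97e-06), from 31.5 to 12.4 CPM. Of 9 phosphatases tested 2 and 3 fell in these comparisons and none rose. Of 9 genes of glucose transporter traffic, 1 rose and 1 fell with ISO, and 2 rose and 2 fell with ISO and inhibitors. Of 6 PI3K subunits and PDK1 tested, 1 and 3 fell and none rose. Of 13 genes of the mTOR complexes and TSC, 1 rose and 3 fell with ISO, and 1 rose and 1 fell with ISO and inhibitors. Foxo6, the least abundant FOXO gene here, gave -1.60 ± 0.46 in Lip+ISO against ISO (adjusted p = 0.0485) at 2.10 and 0.696 CPM, and it was called in 6 of 21 alternatives, lost without any 1 library other than ISO replicate 3 and Lip replicate 1.

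**Figure D4:**
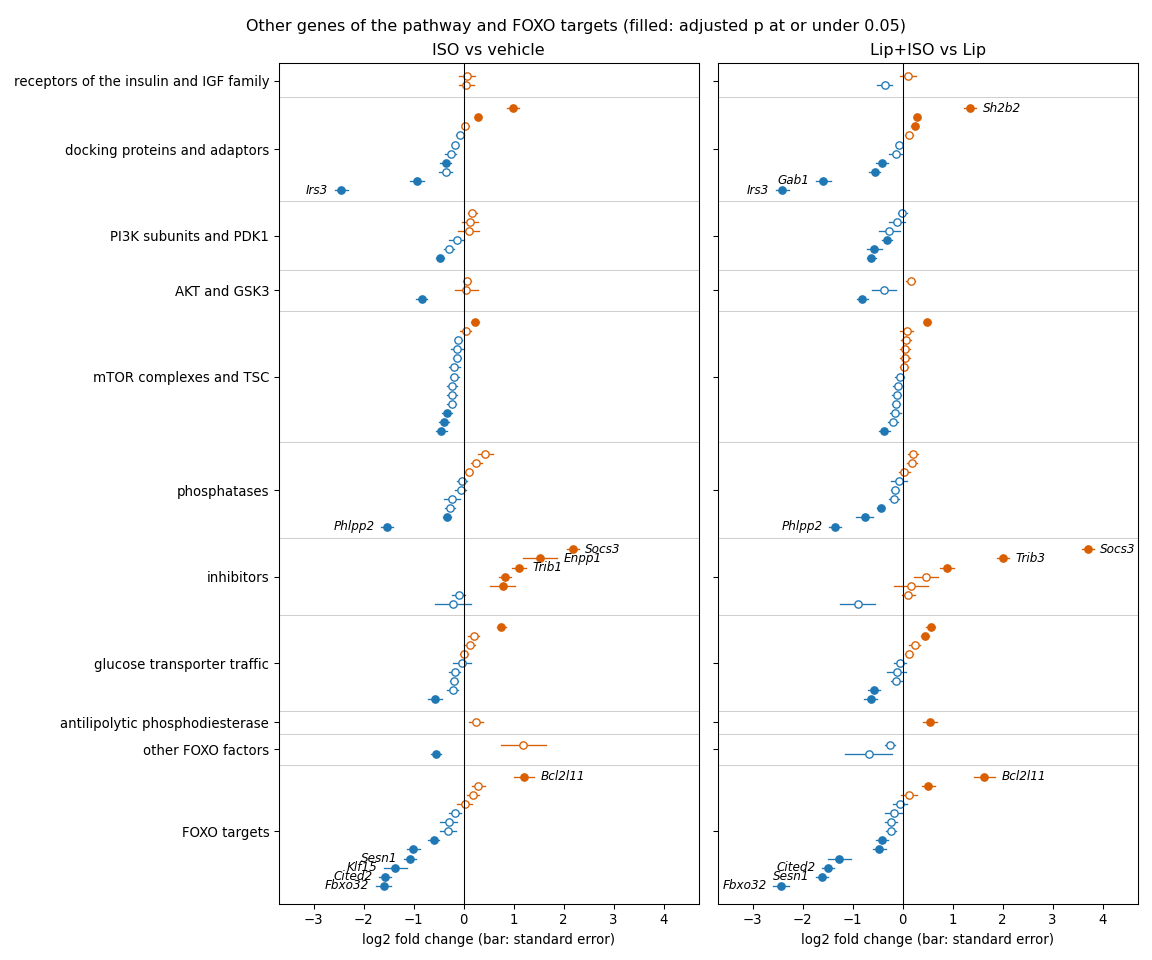
Log2 fold change (x axis, bar: standard error) of each other tested gene of the pathway and of the FOXO target list, 1 row per gene, grouped by role (y axis), in ISO against vehicle (left) and Lip+ISO against Lip (right). Filled symbols passed the adjusted p of 0.05. Irs3 lies at -2.44 and -2.41, and Socs3 at 2.19 and 3.70.

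FOXO factors are known to activate a set of stress and atrophy genes, of which 14 were listed and 13 tested. With ISO 1 rose and 6 fell (median -0.31), and with ISO and inhibitors 2 rose and 6 fell (median -0.23). Over all genes 26.2% and 27.3% were called in these comparisons, with a median of 0.00 in both. Fbxo32, a ubiquitin ligase subunit of muscle atrophy, fell by 1.60 ± 0.15 (adjusted p = 8.94e-06) and fell by 2.43 ± 0.15 (adjusted p = 1.68e-07). Sesn1, a stress-induced sestrin, fell by 1.07 ± 0.11 (adjusted p = 2.15e-05) and fell by 1.61 ± 0.11 (adjusted p = 4.63e-07). Cited2, a transcriptional co-regulator, fell by 1.57 ± 0.12 (adjusted p = 1.92e-06) and fell by 1.49 ± 0.12 (adjusted p = 1.69e-06). Klf15, a transcription factor of fuel metabolism, fell by 1.36 ± 0.23 with ISO (adjusted p = 0.000997), at low levels of 5.69 and 2.22 CPM. It fell by 1.27 with ISO and inhibitors (adjusted p = 0.00104), at 7.22 and 2.99 CPM. Bcl2l11, which encodes the pro-apoptotic protein BIM, went the other way and rose by 1.21 ± 0.20 (adjusted p = 0.000918) and 1.64 ± 0.20 (adjusted p = 5.00e-05). None of the 13 was called in Lip against vehicle. In Lip+ISO against ISO 3 rose and 1 fell, where 8.94% of all genes were called. By library totals alone none rose and 1 fell there, against 501 and 661 over all genes. None was called for the difference between the responses, against 1.62% of all genes. The 4 called in Lip+ISO against ISO, named after their values were seen, were Cdkn1b (0.43), Bcl2l11 (0.71), Cited2 (0.42) and Gadd45a (-0.51). Bcl2l11 was called in 6 of 21 alternatives (0.42 to 0.93) and lost without any 1 library other than Lip+ISO replicate 3. Cited2 was called in 5 of 21 and lost without any 1 library other than Lip replicate 3 and Lip+ISO replicate 2. Cdkn1b was called in 12 of 21 and lost without ISO replicate 1 or 2 or Lip+ISO replicate 2 or 3. Gadd45a was called in 16 of 21 and lost without ISO replicate 2 or 3 or Lip+ISO replicate 3.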

How the data were processed

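RNA from 12 cultures, 3 in each of 4 groups taken from the sample titles, was sequenced. The authors aligned reads to mm9 with STAR 2.4.2a and made gene counts from RefSeq models with HOMER and iRNA-seq, where HOMER kept a single read per position and length. The deposited values are raw counts with no normalization, 1 column per library. Counts were filtered with filterByExpr, scaled by TMM and tested with edgeR 4.0.16 (R 4.3.3), quasi-likelihood, 1 term per group over all 12 libraries and no block. Adjusted p values cover all 13543 genes tested, and CPM per kilobase uses the counted length in the table. The test was run on simulated data first. Alternatives were DESeq2 1.42.0, other scalings, no filter, a replicate block, 2 groups only and libraries left out. Of the other pathway genes and FOXO targets, those called with at least 1 log2 unit are named, at most 10 per comparison, and the 5 genes most like Irs2. The genes and lists were chosen with earlier results of these data known. The study states that its RNA-seq came from 3 independent experiments, and the labels do not say whether replicates are separate animals. The p values thus measure the spread between these samples. Depth was 22632220 to 43707557 counts, and 3 counts in a library correspond to 0.0678 to 0.132 CPM, which covers counting error only.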

Additional observations from a re-analysis of the deposited data

Results flagged for a closer look

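Of the 62 pathway genes tested beyond the 10, 4 responded to ISO differently with and without the lipase inhibitors. This was by the test of the difference itself, for which 1.62% of all genes were called. The response was larger with the inhibitors by 1.52 for Socs3 (adjusted p = 0.000418) and by 1.18 for Trib3 (adjusted p = 0.00273) on the log2 scale. For Grb2, an adaptor to the RAS pathway, the difference was 0.45 (adjusted p = 0.0190), lost in 7 of 20 alternatives, among them library totals alone and without vehicle replicate 3, ISO replicate 3 or Lip replicate 2. For Inppl1, a lipid phosphatase gene, it was -0.53 (adjusted p = 0.0179), lost in 9 of 20 alternatives, among them without vehicle replicate 3, ISO replicate 2 or 3, Lip replicate 1 or 2, or Lip+ISO replicate 3. Inppl1 overlaps Phox2a on the other strand in the table, so reads of both cannot be told apart without strand. Grb2 and Inppl1 were named after their values were seen.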

How the results depend on the processing

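The calls of Irs2 and Pik3r1 in ISO against vehicle and in Lip+ISO against Lip kept their direction and their side of the threshold under every alternative and in all 15 fits that left out 1 library or 1 replicate number, and so did Insr and Foxo1 in Lip+ISO against Lip. The lipase inhibitors alone called 0 members in each of them. With at least 1 log2 unit required, 2 members remained in ISO against vehicle and 2 in Lip+ISO against Lip. With library totals alone 1 member was called in Lip+ISO against ISO, and DESeq2 called 2 there and 1 for the difference between the responses. Over all genes in Lip+ISO against ISO edgeR called 590 higher and 621 lower, library totals alone 501 and 661, and DESeq2 876 and 831. For the difference between the responses edgeR called 122 and 98 of all genes, and DESeq2 324 and 235. Fits that left out libraries called 2 to 5 members in ISO against vehicle, 4 to 6 in Lip+ISO against Lip, 0 to 1 in Lip+ISO against ISO and 0 to 1 for the difference between the responses. For the other pathway genes these fits gave 13 to 24 in ISO against vehicle, 4 to 11 in Lip+ISO against ISO and 1 to 5 for the difference between the responses, the lowest in each case without replicate 2 or 3 of every group, which leaves 2 libraries a group. Calls over all genes in these fits are not given here, so the ranges are not read as a result about these genes. Causes other than fewer libraries were not tested.

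Values near 0 changed sign and none of these was called. DESeq2-type size factors gave 0.0024 for Pik3r1 in Lip+ISO against ISO and 0.0088 for Akt1 in the difference between the responses, where DESeq2 gave 0.0072. Library totals alone gave Akt1 -0.011 in ISO against vehicle and -0.095 in Lip+ISO against Lip, Pik3r1 0.017 and Foxo1 0.0022 in Lip against vehicle, and Pik3r1 -0.069 in the difference between the responses. No filter gave -0.0041 for Akt1 in Lip+ISO against Lip and -0.0031 for Pik3r1 in the difference between the responses. With libraries left out, Akt1 ranged from -0.025 to 0.065 in ISO against vehicle. In Lip against vehicle Irs1 ranged from -0.15 to 0.016, Pik3r1 from -0.14 to 0.085 and Foxo1 from -0.11 to 0.023. In Lip+ISO against ISO Pik3r1 ranged from -0.10 to 0.092 and Grb14 from -0.43 to 0.15. In the difference between the responses Insr ranged from -0.15 to 0.13, Pik3r1 from -0.12 to 0.13, Akt1 from -0.048 to 0.039, Akt2 from -0.12 to 0.053 and Grb10 from -0.13 to 0.0021. The log2 ratio of Irs2 over Irs1 ranged from -0.058 to 0.33 in Lip+ISO against ISO, and that of Grb14 over Grb10 from -0.23 to 0.018 in ISO against vehicle and from -0.24 to 0.13 in Lip+ISO against ISO.

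The replicate numbers were also fitted as a block. Deviations from the group means correlated over 0.1 in 17 of 18 pairs of libraries with the same number (0.04 to 0.37) and in 0 of 36 others, and 12 of 12 libraries correlated best with their own number. Because 1 pair stayed under 0.1 and the labels do not say that a number marks a shared day or animal, the pairing is a hint from the data. With the replicate block 32 other pathway genes were called in ISO against vehicle, 22 in Lip+ISO against ISO and 9 for the difference between the responses. The block also raised the calls over all genes. It gave 2552 higher and 2660 lower in ISO against vehicle (1670 and 1878 without it). In Lip+ISO against Lip it gave 2093 and 2726 (1562 and 2140 without it). In Lip+ISO against ISO it gave 1149 and 1458 (590 and 621), and for the difference between the responses 427 and 471 (122 and 98). Of the members, 5 and 6 were called in ISO against vehicle and in Lip+ISO against Lip as without it, 3 in Lip+ISO against ISO (Irs2 with an adjusted p of 0.00258, Foxo3 0.00668, Insr 0.00833) and 1 for the difference between the responses (Irs2, 0.99, adjusted p = 0.000947).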
